A study of Mus musculus with 1505 samples.

Results

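Sst, Cort, Npy, Pdyn, Tac1, Crhbp and Pthlh encode neuropeptide precursors, or in the case of Crhbp a protein that binds a neuropeptide, and several of them lend their names to classes of cortical interneuron. These 7 genes were taken by symbol from a list, with no threshold on their values, although the list was drawn up with earlier results of these data known. All 7 were found among the 42381 genes of the count table. Their mRNA was described in single neurons of mouse primary motor cortex (MOp), chiefly in the Sst and Pvalb families. In Patch-seq, a neuron is recorded with a patch pipette in an acute slice, cell content is drawn into the pipette, and the RNA is amplified with Smart-seq2 and sequenced. At 34 °C, 185 cells were sequenced, among them 110 Sst and 10 Pvalb cells. At 25 °C there were 1228 cells with a transcriptomic type (t-type), among them 272 Sst and 286 Pvalb cells, and 92 cells without one.

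The mice were adult and of both sexes. They were wild-type C57Bl/6 animals or carried a Cre driver together with the Ai9 reporter, and the Sst-Cre and Pvalb-Cre lines were the most used. Recordings at 34 °C were aimed at layer 5, were made in kynurenic acid and picrotoxin, which block fast synaptic transmission, and used Sst-Cre/Ai9 and Pvalb-Cre/Ai9 mice. Cells found by a reporter under Sst or Pvalb were thus chosen through one of the genes described here or through the name gene of the other family. The labels do not give the driver, the age or the animal of a cell. Each t-type was assigned by the study from the same RNA, so the level of a gene by t-type is not independent of the label, and all values by family and t-type are descriptions.

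Neuropeptides are made as large precursors that are cut by prohormone convertases, packed in dense core vesicles and released during strong activity, after which they act on G protein-coupled receptors of nearby cells. Somatostatin, the product of Sst, marks interneurons that target dendrites. Cort encodes cortistatin, a close relative that binds the same receptors, and Npy encodes neuropeptide Y. Pdyn encodes prodynorphin, the source of the dynorphins, which are ligands of the kappa opioid receptor. Tac1 gives rise to substance P and neurokinin A. Crhbp encodes the secreted protein that binds corticotropin-releasing hormone, and Pthlh encodes the parathyroid hormone-related peptide.

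The genes lie on 5 mouse chromosomes (GRCm38, annotation GENCODE M21, 1-based). Sst is at chr16:23889573-23890958 on the minus strand, Cort at chr4:149125034-149126763 on the minus strand and Npy at chr6:49822710-49829507 on the plus strand. Pdyn is at chr2:129686565-129699844 on the minus strand, Tac1 at chr6:7554879-7565834 on the plus strand, Crhbp at chr13:95431371-95444924 on the minus strand and Pthlh at chr6:147252101-147264183 on the minus strand. None of them overlapped another annotated gene. Their merged exons ranged from 566 bases for Npy and 677 for Cort to 2887 for Pdyn and 3399 for Tac1, so levels are compared between genes only after division by exonic length.

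The Sst promoter is a textbook target of the factor CREB, which binds the cyclic AMP response element. RefSeq promoter windows of 300 bases around the start site (GRCm38.p6) were found for all 7 genes, with 2 windows for Pdyn, and were searched on both strands for the full element TGACGTCA, for its shorter form TGACG and for the TATA box TATAAA. A full element contains the shorter form on each strand. The Sst window (chr16:23890795-23891094, minus strand) held the full element, its first base 48 bases before the start site, and was the only one of the 8 windows to do so. Of 32851 RefSeq promoter windows of this length, 1.79% held the full element and 20.8% the shorter form. Cort (chr4:149126714-149127013, minus strand) held the shorter form once, Crhbp (chr13:95444782-95445081, minus strand) once, and Tac1 (chr6:7554811-7555110, plus strand) at 2 places. TATAAA, found in 13.6% of all windows, occurred in the Crhbp window alone. Its first base there was at position 31, which is downstream of the start site and not before it. The windows with a match are shown 5′ to 3′, because they differ in exactly this element, with the matches in capitals (the shorter form on the other strand reads CGTCA). A match is a string of letters and does not show binding.
Sst: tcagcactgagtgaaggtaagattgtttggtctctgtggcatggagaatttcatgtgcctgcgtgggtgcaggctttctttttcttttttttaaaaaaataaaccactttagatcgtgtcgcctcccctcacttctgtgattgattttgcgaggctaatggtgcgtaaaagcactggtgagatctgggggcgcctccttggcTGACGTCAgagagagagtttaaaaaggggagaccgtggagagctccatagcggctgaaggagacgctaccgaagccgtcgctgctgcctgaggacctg
Cort: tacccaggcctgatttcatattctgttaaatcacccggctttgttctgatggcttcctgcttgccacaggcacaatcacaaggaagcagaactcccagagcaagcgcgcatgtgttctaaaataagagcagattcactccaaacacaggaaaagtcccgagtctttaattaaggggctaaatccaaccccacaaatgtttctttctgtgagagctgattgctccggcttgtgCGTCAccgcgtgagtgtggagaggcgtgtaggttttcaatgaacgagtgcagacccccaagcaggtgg
Tac1: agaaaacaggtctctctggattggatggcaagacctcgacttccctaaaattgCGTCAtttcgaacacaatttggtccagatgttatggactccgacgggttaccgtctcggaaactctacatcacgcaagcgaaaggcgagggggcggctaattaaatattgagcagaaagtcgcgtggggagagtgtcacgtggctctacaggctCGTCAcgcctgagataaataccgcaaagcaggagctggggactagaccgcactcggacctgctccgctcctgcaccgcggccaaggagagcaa
Crhbp: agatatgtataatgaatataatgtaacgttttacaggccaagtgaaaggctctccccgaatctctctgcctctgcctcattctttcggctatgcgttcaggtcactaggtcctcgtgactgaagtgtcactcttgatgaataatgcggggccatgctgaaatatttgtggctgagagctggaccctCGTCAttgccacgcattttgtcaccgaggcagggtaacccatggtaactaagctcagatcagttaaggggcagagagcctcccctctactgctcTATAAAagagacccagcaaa

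Exonic counts, without the spike-in rows, ranged from 2588 to 14227326 per Sst cell (median 1304010, 84 recording days) and from 11411 to 13543846 per Pvalb cell (median 1427229, 113 days) at 25 °C. At 34 °C, the Sst cells had 1467 to 3217820 counts. Of the genes of GABAergic neurons (Gad1, Gad2, Slc32a1), all 3 reached 10 CPM (counts scaled to a common library total) in both families, and Pvalb was at 16.6 CPM in Sst cells against 373 CPM in Pvalb cells. The 8 microglial markers summed to 743 CPM in Sst and 932 CPM in Pvalb cells, with medians per cell of 319 and 299 CPM and maxima of 10489 and 14460 CPM. Because each sample is 1 cell and no animal is named, every group of cells was treated as 1 sample and no test was made. Group levels are the CPM of counts summed over cells, with exact Poisson intervals (95%). Shares of cells are given after thinning to 200000 counts, with exact binomial intervals. The Poisson intervals cover the counting of reads only, and not that of molecules, since copies made by PCR were counted as separate reads. The binomial intervals of shares treat the cells as independent draws. Neither covers differences between animals or days. The spread over cells is given by the lowest, median and highest cell.

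The members fell into a set of genes high in Sst cells and a pair high in Pvalb cells. In the sums, 5 of the 7 were at least 2-fold higher in Sst than in Pvalb cells, whereas 6.4% of the 10852 genes with 10 CPM or more in the higher family were. The other 2, Tac1 and Pthlh, were at least 2-fold lower in Sst cells, as were 6.72% of genes. Each fold change is the log2 ratio of 2 group levels, with 1 CPM added to both. The levels differed far more between cells of a family than counting error allows, and the plot of CPM by family shows a wide spread within each family.

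**Figure D1:**
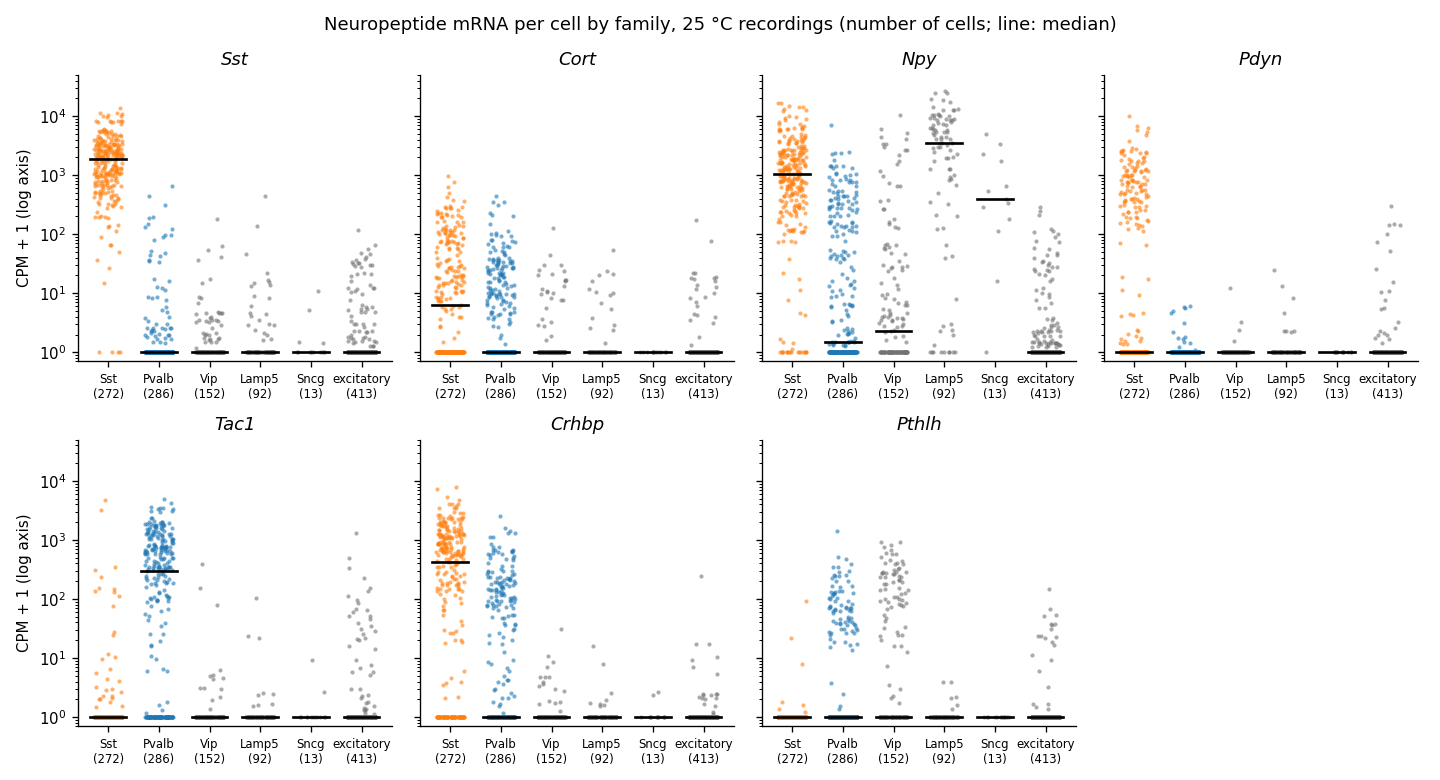
Level of each of the 7 genes in single cells at 25 °C, as CPM + 1 on a log axis, by family. Each point is a cell, black lines are medians and the number of cells is in parentheses. Sst cells had a median of 1875 CPM for Sst, Pvalb cells a median of 298 CPM for Tac1, and Npy was highest in Lamp5 cells, with a median of 3452 CPM.

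Sst was at 2189 CPM in Sst cells (interval 2184 to 2193) and 8.56 CPM in Pvalb cells (8.30 to 8.83), a log2 fold change of 7.84. The lowest, median and highest Sst cells had 0, 1875 and 13951 CPM, and the corresponding Pvalb cells 0, 0 and 659 CPM. Of the 272 Sst cells, 218 lay above the highest Pvalb cell. A read was found in 98.3% of thinned Sst cells (233 of 237) and in 12.1% of thinned Pvalb cells (33 of 273). The 395 thinned excitatory neurons, which are not known for somatostatin, showed a read in 9.87% (7.12 to 13.3). The interval of the Pvalb share (8.47 to 16.6) overlapped this background. Before thinning, the median depth of all 413 excitatory neurons was 1164956 counts.

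Pdyn, the dynorphin precursor, was at 669 CPM in Sst cells (667 to 672) and 0.0894 CPM in Pvalb cells, where 42 reads were found in all 286 cells together. The log2 fold change was 9.26. Sst cells with and without Pdyn were about equally frequent, since 46% of thinned Sst cells had a read, and the median over all Sst cells was 0 CPM. The highest Sst cell reached 10027 CPM, against 5.01 CPM in the highest Pvalb cell. In Pvalb cells the share with a read, 2.2%, lay below the 3.54% of excitatory neurons and is read as background. Because both medians were 0 CPM, the difference in Pdyn stands in the sums and not in the medians, and the same holds for Pthlh.

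Npy and Crhbp were shared between the families at unequal levels. Npy was at 1875 CPM in Sst cells and 203 CPM in Pvalb cells, a log2 fold change of 3.20, with medians of 1033 and 0.491 CPM and highest cells of 16835 and 7102 CPM. Crhbp was at 823 CPM in Sst cells and 111 CPM in Pvalb cells, a log2 fold change of 2.87, with medians of 421 and 0 CPM. The groups overlapped for both genes, as only 16 Sst cells exceeded the highest Pvalb cell for Npy and 17 for Crhbp. A Crhbp read was present in 72.2% of thinned Sst cells and 44.3% of thinned Pvalb cells, against 1.77% of excitatory neurons.

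Cort had the smallest difference of the 7 genes, at 51.8 CPM in Sst cells and 17.2 CPM in Pvalb cells (log2 fold change 1.54). The medians were 5.22 and 0 CPM and the highest cells 964 and 443 CPM. After thinning, 53.2% of Sst cells (46.6 to 59.7) and 42.9% of Pvalb cells (36.9 to 49) had a Cort read, against 4.81% of excitatory neurons. Cortistatin mRNA thus occurred in cells of both families at shares above that of excitatory neurons.

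Tac1, the substance P precursor, was at 32.9 CPM in Sst cells and 596 CPM in Pvalb cells, a log2 fold change of -4.14. The medians were 0 and 298 CPM. A read occurred in 7.59% of thinned Sst cells and 68.5% of thinned Pvalb cells, and the share in Sst cells lay below the 8.35% of excitatory neurons. A single Sst cell held 61.9% of all Tac1 reads of its family, and without it, an alternative chosen after the data were seen, the log2 fold change was -5.46. Pthlh was at 0.224 CPM in Sst cells, where 99 reads were found, and at 33.1 CPM in Pvalb cells, a log2 fold change of -4.80. It had a read in 28.6% of thinned Pvalb cells and in 1 of 237 thinned Sst cells.

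Divided by exonic length, Npy (3313 CPM per kb) and Sst (3036 CPM per kb) led the summed levels in Sst cells, before Crhbp (457) and Pdyn (232), and Cort (76.5), Tac1 (9.69) and Pthlh (0.138) came last. In Pvalb cells the same scale gave 359 CPM per kb for Npy and 175 for Tac1, 61.9 for Crhbp, 25.4 for Cort, 20.4 for Pthlh and 11.9 for Sst. By medians over cells the leading genes changed places. In Sst cells Sst had 2601 and Npy 1825 CPM per kb. In Pvalb cells Tac1 had 87.7 and Npy 0.868 CPM per kb, and a single cell held 17.7% of the Npy reads. Cell by cell, Sst was the highest of the 7 genes per kb in 154 of 272 Sst cells and Npy in 111. In Pvalb cells Tac1 led in 103 of 286 cells, Npy in 80, Crhbp and Pthlh in 32 each, and 22 cells had no read of any member.

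The order of the families was mostly the same over recording days. On the 62 days with 2 or more Sst cells, the mean level per day of Sst in these cells ranged from 341 to 7751 CPM, with a median of 2043 CPM. On 37 days both families were recorded. The mean of Sst cells was higher than that of Pvalb cells on all 37 for Sst, on 29 for Npy, 27 for Crhbp, 26 for Pdyn and 22 for Cort, and lower on 33 for Tac1 and 11 for Pthlh. For Pthlh the means were equal on 24 days. Days are not named as animals. In the earlier recording period, before 2019, Sst cells had 3023 CPM of Sst and Pvalb cells 0.331 CPM, and in 2019 the values were 1915 and 15.3 CPM. The 5 higher and 2 lower members were the same in either period.

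Outside these families, Npy was highest in Lamp5 cells, the neurogliaform class, at 5996 CPM (median 3452), and reached 1356 CPM in Sncg and 367 CPM in Vip cells. The median was 394 CPM in Sncg cells, where a single cell held 49.3% of the reads. In Vip cells the median was 1.25 CPM and the third quartile 27.6 CPM. Pthlh was higher in Vip cells, at 114 CPM, than in Pvalb cells. Of the 53 t-types with 5 or more cells, Vip Mybpc1_1 led for Pthlh (385 CPM) and Lamp5 Slc35d3 for Npy (10367 CPM). The other 5 genes were at 6.68 CPM or less in the Vip, Lamp5 and Sncg families. In the excitatory families at 25 °C, no member exceeded 12.3 CPM, the level of Tac1 in L6b cells, where 98.1% of the reads came from a single cell. Divided by exonic length, Npy in IT cells was highest, at 13.2 CPM per kb, against 3.62 CPM per kb for Tac1 in L6b cells.

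Among the 15 Sst t-types with 5 or more cells, Sst mRNA was present in every one but at unequal levels. It was highest in Sst Calb2, at 4522 CPM (61 cells, with 403, 3252 and 11354 CPM in the lowest, median and highest cell). Sst Th_3 followed at 3379 CPM and Sst Crhr2_2 at 2690 CPM. Sst C1ql3_2 had 530 CPM and Sst Pvalb Calb2 615 CPM. Sst Pvalb Calb2, named for both families, had the lowest median, 294 CPM, and 4 of its 26 cells had no Sst read. When t-types were placed in order of their medians, the ranges between quartiles of neighbours overlapped at every step, so no neighbours differed beyond the spread over cells, although the ends of the order did.

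**Figure D2:**
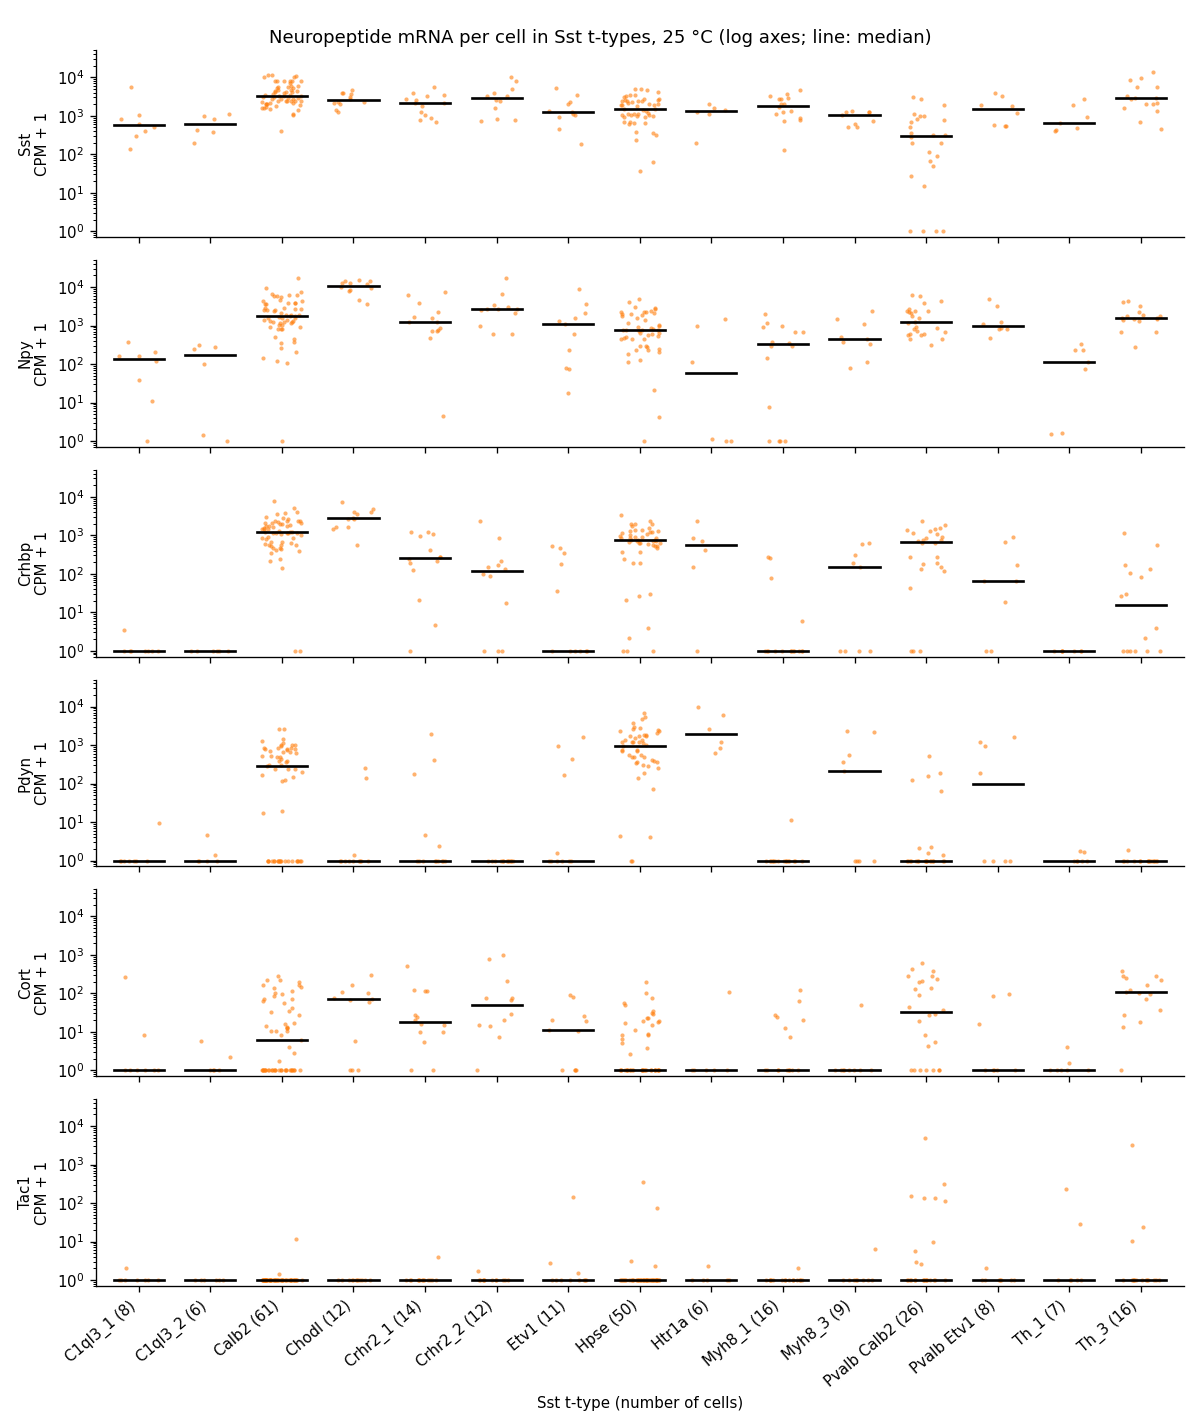
CPM + 1 on log axes of 6 members in single cells of the 15 Sst t-types with 5 or more cells at 25 °C. Each point is a cell, black lines are medians and numbers of cells are in parentheses. Npy peaked in Chodl (median 10918 CPM), Pdyn in Htr1a (1902 CPM) and Hpse (968 CPM), and the medians of Tac1 were 0 CPM in all 15 t-types.

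Npy had medians of 10 CPM or more in all 15 Sst t-types, but its range was wide, at 9435 CPM in Sst Chodl, 3178 CPM in Sst Calb2 and 2865 CPM in Sst Crhr2_2, and at 127, 126 and 120 CPM in Sst Th_1, Sst C1ql3_1 and Sst C1ql3_2. In the order of medians there was 1 step at which the quartile ranges did not overlap, between Sst Chodl (8380 to 13307 CPM) and Sst Crhr2_2 (1796 to 3195 CPM).

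Crhbp, by summed level, was at 3367 CPM in Sst Chodl, 1671 CPM in Sst Calb2, 1007 CPM in Sst Pvalb Calb2 and 976 CPM in Sst Hpse. No read was found in the 6 cells of Sst C1ql3_2 or the 7 of Sst Th_1, which allows up to 0.217 and 0.355 CPM at 3 counts over the group, and 5 reads were found in Sst C1ql3_1. The same 3 t-types were those with the lowest summed Npy, whereas by medians Sst Htr1a had the least Npy (57.3 CPM) and the fifth highest Crhbp (566 CPM). Across the 15 Sst t-types, log2 levels of Npy and Crhbp had a Pearson correlation of 0.80, given as a description, since the t-types come from shared days and libraries and were defined from the same RNA.

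Pdyn ranged over the Sst t-types from no read to 5114 CPM. Sst Htr1a had 5114 CPM, with 639, 1902 and 10027 CPM in the lowest, median and highest of its 6 cells, and 69.4% of its reads came from the highest cell. Sst Hpse had 1964 CPM (median 968), and a read occurred in 95.2% of its thinned cells. Sst Myh8_3 (595 CPM), Sst Pvalb Etv1 (489 CPM) and Sst Calb2 (332 CPM) followed. In Sst Calb2, 41 of 61 cells had a read, and the first quartile was 0 CPM. At the other end, Sst Crhr2_2 had no Pdyn read in 12 cells (up to 0.0908 CPM at 3 counts), Sst Th_3 had 1 read in 16 cells and Sst Myh8_1 had 2 reads in 16 cells.

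Cort peaked in other t-types than Pdyn. Sst Crhr2_2 had 122 CPM, of which 51.1% came from a single cell, Sst Pvalb Calb2 had 120 CPM and Sst Th_3 had 117 CPM. By medians, Sst Th_3 led with 104 CPM, and 15 of its 16 cells had a read. Sst Hpse, high in Pdyn, had 8.72 CPM of Cort. In single Sst cells the pair was not exclusive, because 46 of 109 thinned cells with Pdyn also had Cort, against 126 of all 237.

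Tac1 had a median of 0 CPM in each of the 15 Sst t-types, and 4 of them reached 10 CPM in their sums. These were Sst Pvalb Calb2 at 194 CPM, Sst Th_3 at 163 CPM, Sst Etv1 at 23.6 CPM and Sst Th_1 at 20.4 CPM. A single cell held 88.5%, 97.0%, 99.3% and 69.8% of these reads, in the same order. Pthlh did not exceed 1.80 CPM in any Sst t-type.

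Among the 9 Pvalb t-types, Tac1 was present in every one, at levels that ranged from 2026 CPM in Pvalb Egfem1, 1621 CPM in Pvalb Gabrg1 and 1547 CPM in Pvalb Calb1_2 to 194 CPM in Pvalb Reln and 41 CPM in Pvalb Vipr2_2, the t-type of chandelier cells, which target axon initial segments. The 11 cells of Pvalb Egfem1 had 361, 1700 and 4193 CPM as lowest, median and highest value. In Pvalb Reln, 39.1% of thinned cells had a Tac1 read and the median was 0 CPM. The ranges between quartiles overlapped for all neighbours in the order of medians.

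**Figure D3:**
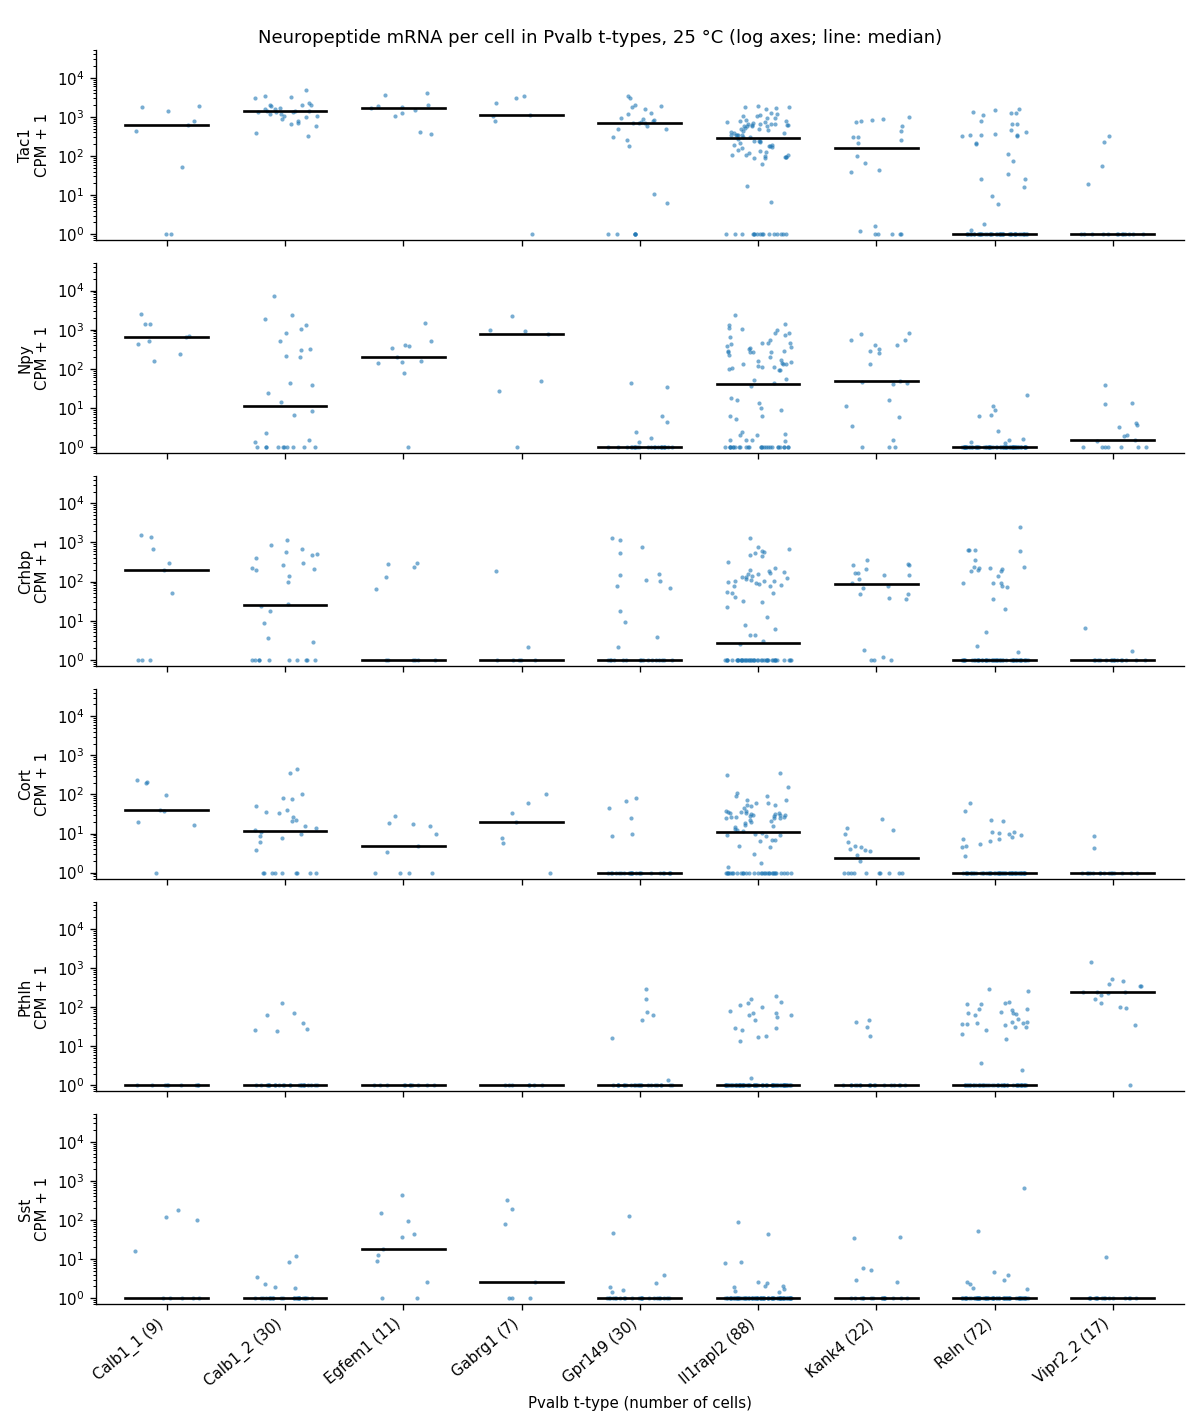
CPM + 1 on log axes of 6 members in single cells of the 9 Pvalb t-types at 25 °C. Each point is a cell, black lines are medians and numbers of cells are in parentheses. Tac1 and Npy were low in Reln and Vipr2_2, and Pthlh was highest in Vipr2_2, with a median of 244 CPM.

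In the sums, Npy split the Pvalb t-types into 6 with 153 to 869 CPM and 3 with 0.943 to 3.83 CPM. By medians the 6 ranged from 10.5 to 764 CPM and the 3 from 0 to 0.480 CPM. Quartile ranges overlapped where the groups met, between Pvalb Calb1_2 and Pvalb Vipr2_2. Pvalb Gabrg1 had 869 CPM, Pvalb Calb1_1 761 CPM, Pvalb Calb1_2 507 CPM, Pvalb Egfem1 464 CPM, Pvalb Il1rapl2 204 CPM and Pvalb Kank4 153 CPM. Pvalb Vipr2_2, Pvalb Gpr149 and Pvalb Reln had 3.83, 3.72 and 0.943 CPM. The largest of these groups, the 72 cells of Pvalb Reln, had a highest cell of 19.8 CPM, and a read occurred in 8.70% of thinned Pvalb Reln cells, below the 11.6% of excitatory neurons. In Pvalb Calb1_2, 59.4% of the Npy reads came from 1 of 30 cells and the median was 10.5 CPM. In the order of medians the quartile ranges of Pvalb Calb1_1 (441 to 1410 CPM) and Pvalb Egfem1 (144 to 390 CPM) were the only neighbours that did not overlap.

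Crhbp was highest in Pvalb Calb1_1, at 392 CPM, and in Pvalb Calb1_2, at 205 CPM. It was most regular in Pvalb Kank4, where 81.8% of thinned cells had a read at a summed level of 92.2 CPM. Cort ranged from 74.2 CPM in Pvalb Calb1_1 and 37.8 CPM in Pvalb Calb1_2 to 0.631 CPM in Pvalb Vipr2_2. Sst itself reached 116 CPM in the sum of Pvalb Gabrg1, 55.9 CPM in Pvalb Egfem1 and 50.9 CPM in Pvalb Calb1_1. It stayed at 4.06 CPM or less in the other 6 t-types. The medians were 1.55, 16.7 and 0 CPM in the same order, so by medians Pvalb Egfem1 led. A Sst read was found in 72.7% of the 11 thinned Pvalb Egfem1 cells, above the 9.87% of excitatory neurons, and the highest of these cells had 435 CPM. Pdyn was at 0.401 CPM or less in all 9 Pvalb t-types.

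Sst Chodl cells, known as long-range projecting inhibitory neurons, were set against the other Sst cells. Npy was at 9435 CPM in the 12 Sst Chodl cells and 1677 CPM in the 260 other Sst cells, a log2 fold change of 2.49. The lowest, median and highest Sst Chodl cells had 3555, 10918 and 14988 CPM, and the other Sst cells 0, 919 and 16835 CPM. Crhbp was at 3367 CPM in Sst Chodl and 756 CPM in other Sst cells, a log2 fold change of 2.15, with medians of 2748 and 351 CPM. All 12 Sst Chodl cells lay above the median of the other cells for both genes, and none lay above their highest cell.

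Sst and Cort differed less than 2-fold in this comparison (log2 fold changes of 0.22 and 0.41), but the medians of Cort were 69.2 CPM in Sst Chodl and 4.70 CPM in other Sst cells. Pdyn was at 53 CPM in Sst Chodl and 685 CPM in other Sst cells (log2 fold change -3.67), with medians of 0 and 0.469 CPM. Tac1 had no read in Sst Chodl against 33.8 CPM in the other cells. A level of 3 counts over the group would lie 127-fold below that sum, but this is no bound on the difference. The reads of the other cells came from few cells and their median was 0 CPM. Of all 272 Sst cells, 32 had a Tac1 read, and a single cell held 61.9% of the reads. In all, 2 of 6 measurable members were at least 2-fold higher and 2 lower, beside 15.6% and 24.9% of 11162 genes. Summed astrocyte markers were at 124 CPM in Sst Chodl and 63.1 CPM in other Sst cells, with Aqp4, Gfap and Gja1 at 0 in Sst Chodl. Their part in the result was not tested.

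Sst Pvalb Calb2 was compared with the other Sst cells because its name holds both families. Its 26 cells had 615 CPM of Sst, against 2401 CPM in the 246 other Sst cells (log2 fold change -1.96), with medians of 294 and 2013 CPM. Pdyn was at 38 CPM in Sst Pvalb Calb2 and 754 CPM in other Sst cells (log2 fold change -4.27), but the medians were 0 and 0.596 CPM, and by medians the change was -0.67 and below 2-fold. Cort was higher, at 120 CPM in Sst Pvalb Calb2 and 42.5 CPM in other Sst cells (log2 fold change 1.48), with medians of 31.9 and 4.30 CPM. Npy and Crhbp changed by -0.29 and 0.33 on the log2 scale. Thus 2 of 6 members were at least 2-fold higher and 2 lower, beside 8.37% and 12.2% of 10854 genes.

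The second of the higher members was Tac1, at 194 CPM in Sst Pvalb Calb2 and 11.2 CPM in other Sst cells, with medians of 0 in both. Without the single cell that held most of its reads, an alternative chosen after the data were seen, the log2 fold change was 0.98 in place of 3.99. Pvalb mRNA was at 93.8 CPM in the sum of Sst Pvalb Calb2 and 6.14 CPM in that of other Sst cells. The lowest, median and highest cells had 0, 2.16 and 734 CPM in Sst Pvalb Calb2 and 0, 0 and 145 CPM in the others. Markers of oligodendrocyte precursors summed to 95.4 CPM in Sst Pvalb Calb2 (highest cell 328 CPM) and 15.3 CPM in other Sst cells (highest cell 1764 CPM), and all 3 were at least 2-fold higher. Their part in the result was not tested.

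The chandelier t-type Pvalb Vipr2_2 differed at least 2-fold from the other Pvalb cells in the sums of every measurable member, and by medians in Pthlh and Tac1. Pthlh was at 357 CPM in its 17 cells and 17 CPM in the 269 other Pvalb cells, a log2 fold change of 4.31. The lowest, median and highest cells had 0, 244 and 1417 CPM in Pvalb Vipr2_2 and 0, 0 and 297 CPM in the others, and 6 Pvalb Vipr2_2 cells lay above the highest other cell. A read was present in 94.1% of thinned Pvalb Vipr2_2 cells. This was the 1 member of 5 measurable that was at least 2-fold higher, beside 12.3% of 11081 genes.

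The 4 other measurable members were at least 2-fold lower, beside 19.2% of genes. Tac1 was at 41 CPM in Pvalb Vipr2_2 and 624 CPM in other Pvalb cells (log2 fold change -3.90), with medians of 0 and 336 CPM. Crhbp was at 0.406 and 117 CPM (-6.39), Npy at 3.83 and 213 CPM (-5.47) and Cort at 0.631 and 18 CPM (-3.54), each given for Pvalb Vipr2_2 before other Pvalb cells. These 3 differences stand in the sums, since the medians were 0 and 0.551 CPM for Crhbp, 0.480 and 0.497 CPM for Npy and 0 CPM in both for Cort. All 17 Pvalb Vipr2_2 cells were recorded in 2019, on 7 days, and within that year the log2 fold change of Pthlh was 5.03. The 8 microglial markers were all at least 2-fold higher in Pvalb Vipr2_2, at a sum of 3183 CPM (0 to 14461 CPM per cell, median 894) against 820 CPM (0 to 12388 CPM per cell, median 270). Their part in the result was not tested, and the study also used Vipr2-Cre/Ai9 mice, whose part cannot be told apart from that of the t-type.

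Single cells mostly held several members at once. Of 237 thinned Sst cells, 65.8% (59.4 to 71.8) had reads of 4 or more of the 7 genes and 96.2% of 2 or more. Of 273 thinned Pvalb cells, 24.9% (19.9 to 30.5) had 4 or more and 72.5% had 2 or more, while 9.52% had none. Sst with Npy was the most frequent pair in Sst cells, at 90.3% (85.8 to 93.7), and all 109 cells with Pdyn also had Sst. Sst was read in 233 and Npy in 218 of all 237 cells, so nothing beyond these single shares is read from these counts. In Pvalb cells, Npy with Tac1 was the most frequent pair, at 38.5% (32.7 to 44.5), and 105 of the 121 cells with Npy had Tac1, whereas 187 of all 273 did.

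**Figure D4:**
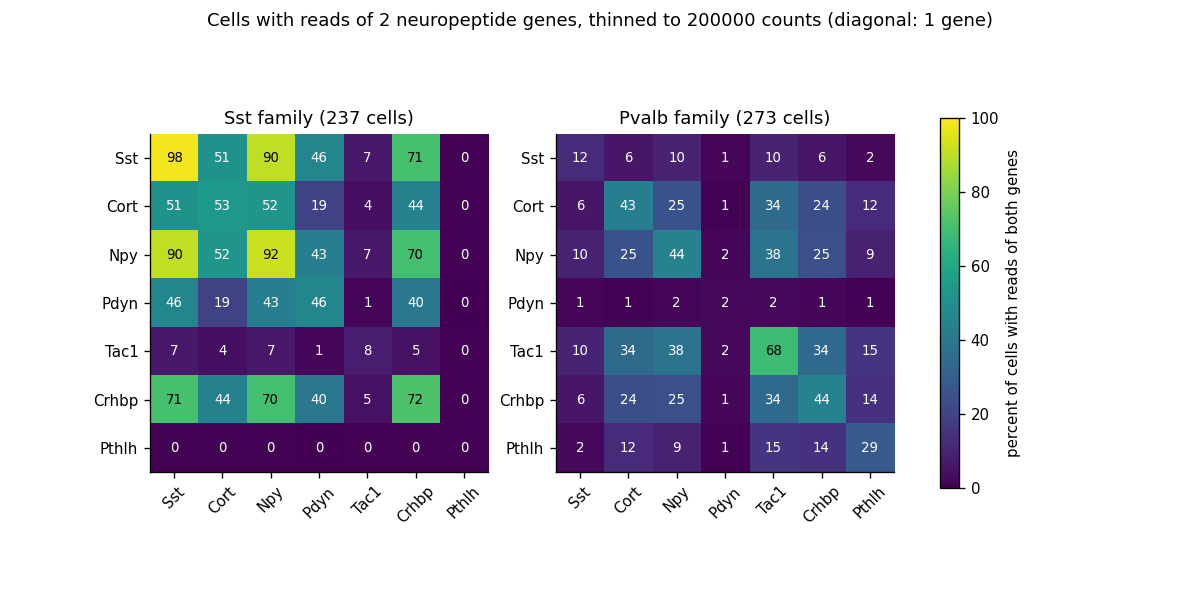
Percentage of cells with a read of both genes of a pair after thinning to 200000 counts, in Sst cells (left, 237 cells) and Pvalb cells (right, 273 cells). The diagonal gives the percentage with a read of 1 gene. In Sst cells the pair Sst and Npy reached 90.3%, and in Pvalb cells Npy and Tac1 reached 38.5%.

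Other pairs were less frequent. Among thinned Pvalb cells, 41 of the 78 with Pthlh had Tac1, whereas 187 of all 273 did, and 25 of the 78 had Npy, whereas 121 of all 273 did. In Sst cells Pdyn and Tac1 occurred together in 3 of 237 cells, but only 18 had Tac1 at all. Pairs across members come from the same cells and t-types, and no test of exclusion was made.

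The genes whose log2 levels were most like those of a member over the 53 t-types were searched among 11583 genes with 50 CPM in at least 1 t-type. For Sst these were Grin3a (Pearson r 0.77), Lgals1 (0.76) and Rbp4 (0.73). Lgals1 also led for Cort (0.85), followed by Crhbp and Sox6 (0.79 each). Sox6, a transcription factor of interneurons from the medial ganglionic eminence, led for Crhbp (0.85), followed by Lgals1 (0.83) and Cort (0.79). For Npy the genes were Rab3b (0.69), Sst (0.69) and Pdxk (0.67), and for Pdyn they were Oxtr, the oxytocin receptor (0.69), Unc13c (0.69) and Stk32b (0.68). For Tac1, Pvalb (0.78), Adamtsl5 (0.78) and Myof (0.76) were nearest, and for Pthlh Wnt5b (0.74), Ret (0.72) and Cp (0.71), each highest in Vip Mybpc1_1. Of these 21 genes, 11 remained among the nearest 3 when t-types with fewer than 10 cells were left out. The correlations describe t-types defined from the same RNA.

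Peptide precursors need enzymes and vesicle proteins to be processed and secreted. Of the 18 genes in a list of 19 such genes that reached 10 CPM, 7 were at least 2-fold higher in Sst than in Pvalb cells and 1 (Furin) was lower, beside 6.4% and 6.72% of all genes, with a median log2 fold change of 0.53, against -0.04 over all 10852 genes. The largest changes were those of the convertase Pcsk5, at 41 CPM in Sst and 0.247 CPM in Pvalb cells (5.07), the convertase Pcsk1, at 46.7 and 5.03 CPM (2.98), Qpct, which cyclizes N-terminal glutamine, at 41.1 and 8.85 CPM (2.10), and Ptprn, a protein of dense core vesicles, at 276 and 99.8 CPM (1.46). In Sst Chodl, 4 of 18 were higher and 1 lower than in other Sst cells, beside 15.6% and 24.9% of all genes, and Pcsk2, a convertase named after its values were seen, was at 488 CPM in Sst Chodl and 62.2 CPM in other Sst cells. Of the same list, 1 was higher and 5 were lower in Sst Pvalb Calb2 than in other Sst cells, beside 8.37% and 12.2% of all genes.

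Of 17 other peptide genes, 6 reached 10 CPM in Sst or Pvalb cells, and 3 of them were at least 2-fold higher in Sst cells and 2 lower, beside the same 6.4% and 6.72%. Crh, the ligand bound by the Crhbp product, was at 45.8 CPM in Sst and 0.196 CPM in Pvalb cells (log2 fold change 5.29), and Tac2, the neurokinin B precursor, at 19.3 and 0.0426 CPM (4.28). Cck, the cholecystokinin precursor, was at 8.99 CPM in Sst and 137 CPM in Pvalb cells (-3.78), and Cartpt at 3.58 and 27.4 CPM (-2.64). These counts describe lists of few genes, and nothing particular to the lists is read from them.

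Recordings at 34 °C gave a second set of Sst cells, with 9 t-types that had 5 or more cells in both tables. Summed over these t-types, the 98 cells at 34 °C had 2389 CPM of Sst and the 199 cells at 25 °C had 2266 CPM, a log2 fold change of 0.08. The changes of Cort (-0.31), Npy (-0.41), Pdyn (0.35) and Crhbp (-0.43) were also below 2-fold. Tac1 was lower, at 0.953 CPM at 34 °C and 30.2 CPM at 25 °C (-4.00), with medians of 0 in both. Without the single Sst Pvalb Calb2 cell that held most of these reads at 25 °C, an alternative chosen after the data were seen, the change was -1.31 and Tac1 no longer reached 10 CPM. No member was at least 2-fold higher and 1 of 6 was lower, beside 3.37% and 7% of 10580 genes. By medians 1 member, Pdyn, was higher, at 78.2 CPM at 34 °C and 18.1 CPM at 25 °C, and none was lower among those that reached 10 CPM. Temperature, blockers, layer, mice and recording days differed together and cannot be told apart. The pooled groups also held the 9 t-types in unequal proportions. Sst Calb2 gave 14 cells at 34 °C and 61 at 25 °C, and Sst Myh8_1 gave 18 and 16. The part of these proportions in the pooled values was not tested.

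**Figure D5:**
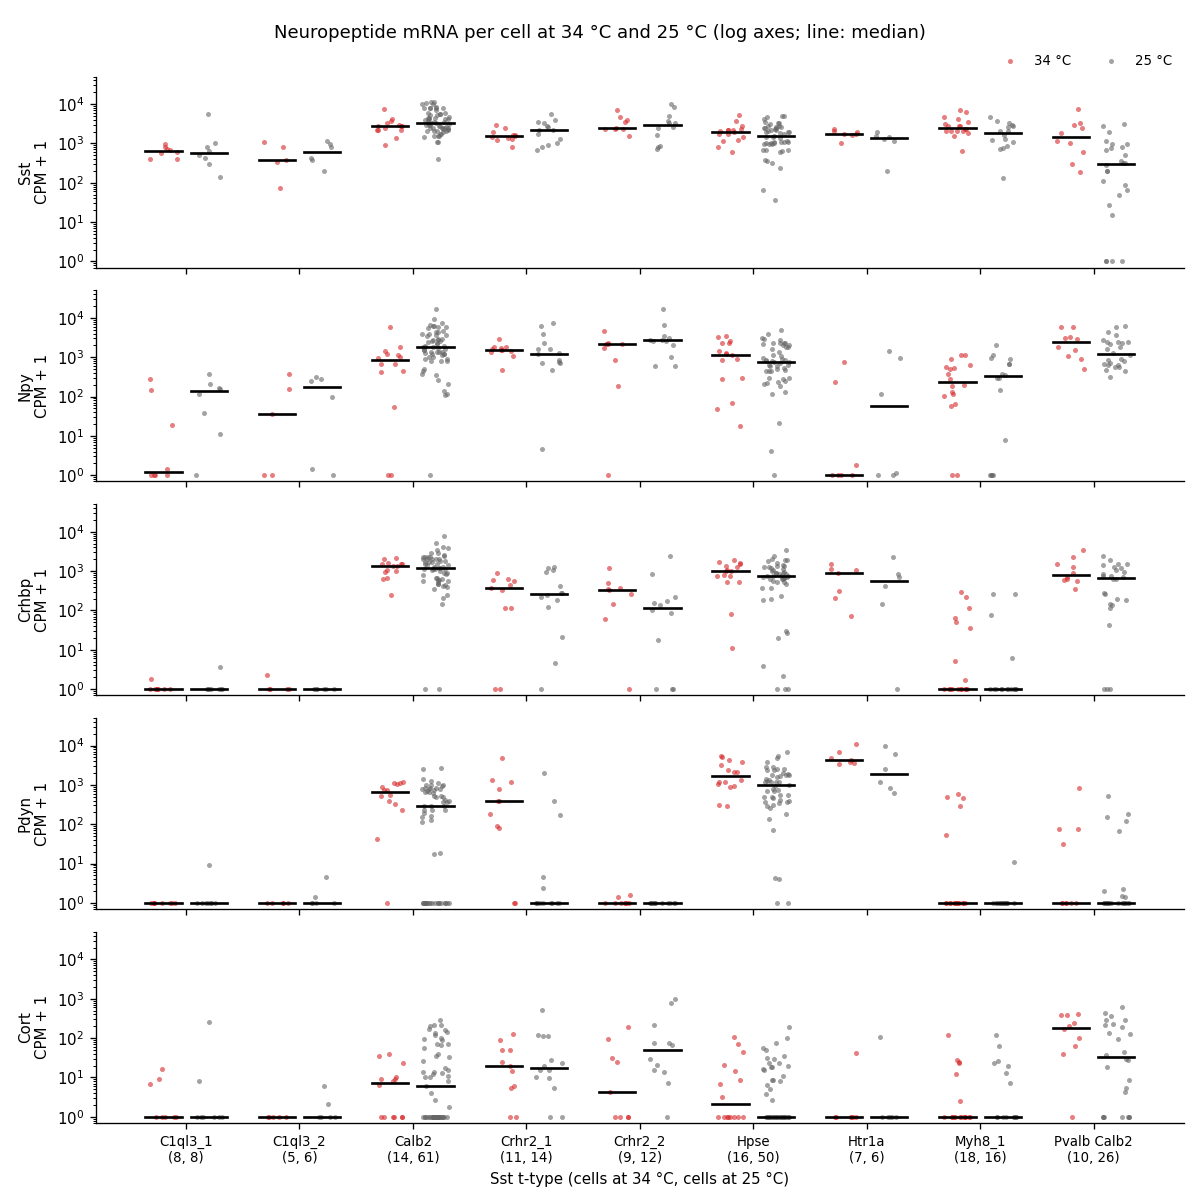
CPM + 1 on log axes of 5 members in single cells of the 9 Sst t-types with 5 or more cells at both temperatures, with 34 °C on the left of each pair and 25 °C on the right. Each point is a cell and black lines are medians. Pdyn was highest in Htr1a at either temperature, with medians of 4270 CPM at 34 °C and 1902 CPM at 25 °C.

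The order of the t-types was largely kept. Spearman correlations of the medians of the 9 t-types between temperatures were 0.98 for Crhbp, 0.92 for Pdyn, 0.84 for Cort, 0.83 for Npy and 0.80 for Sst, as a description over t-types that were assigned from the same RNA. Sst Htr1a led for Pdyn with 7048 CPM at 34 °C, where its 7 cells ranged from 3422 to 10902 CPM, against 5114 CPM and 639 to 10027 CPM at 25 °C. Sst Crhr2_2 had 0.150 CPM of Pdyn in 9 cells at 34 °C, against no read in 12 cells at 25 °C.

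Single t-types differed more. Pdyn was at 1440 CPM in Sst Crhr2_1 at 34 °C, where 9 of 11 cells from 6 days reached 10 CPM, against 131 CPM at 25 °C, where 3 of 14 cells did. A single cell held 72.2% of these reads at 34 °C, and the medians were 380 CPM at 34 °C and 0 CPM at 25 °C. In Sst Myh8_1 it was at 113 CPM at 34 °C, with 5 of 18 cells at 10 CPM or more, against 0.0918 CPM at 25 °C, with 1 of 16 cells. Sst Pvalb Calb2 had 2093 CPM of Sst at 34 °C (lowest, median and highest cell 181, 1492 and 7450 CPM), against 615 CPM at 25 °C (0, 294 and 3163 CPM), a log2 fold change of 1.76. Its Tac1 was at 0.431 CPM at 34 °C and 194 CPM at 25 °C, where a single cell held 88.5% of the reads. In the sums, Cort was at least 2-fold lower at 34 °C in 4 of 8 measurable t-types and higher in 1. Of these 4, the medians were lower at 34 °C in Sst Crhr2_2 alone (3.25 against 47.8 CPM at 25 °C), and were 18.5 and 16.6 CPM in Sst Crhr2_1, 6.10 and 5.14 CPM in Sst Calb2 and 0 CPM at both temperatures in Sst C1ql3_1.

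Reads of Sst and Npy in excitatory neurons were more frequent at 34 °C. A Sst read was found in 41.9% of the 43 thinned IT cells at 34 °C, at a summed level of 17.3 CPM, against 7.50% of IT cells and 4.36 CPM at 25 °C. In ET cells a Sst read was found in 58.3% of 12 thinned cells at 34 °C and 9.09% of 44 at 25 °C. Their Npy was at 38.7 and 3.57 CPM. A Npy read was found in 34.9% of thinned IT cells at 34 °C and 10% at 25 °C, and in 58.3% and 13.6% of ET cells. The cells at 34 °C were aimed at layer 5, whereas all IT and ET t-types were taken at 25 °C, so t-types were not matched. Microglial markers moved the other way in Sst cells, with 7 of 8 at least 2-fold lower at 34 °C and sums of 203 CPM (0 to 1975 CPM per cell, median 112) at 34 °C and 770 CPM (0 to 10489 CPM per cell, median 341) at 25 °C. Their part in the temperature values was not tested.

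Intronic reads of the members, counted at 34 °C, were few in Sst cells. In 110 Sst cells, they made up 1.31% of the exonic plus intronic reads of Sst, 1.96% for Crhbp, 2.17% for Pdyn, 4.53% for Npy and 7.07% for Cort, against 25.7% over all genes. In the 10 Pvalb cells the share was 1.56% for Tac1, at 294 intronic reads. An intronic read of Sst was found in 52 of the 110 Sst cells, whereas in the 43 IT cells no intronic read of Sst was found beside 1092 exonic reads, which allows a share of up to 0.337% (exact binomial). In IT cells the share was 48.4% for Tac1, at 233 intronic and 248 exonic reads, and 33% for Pthlh, against 37.4% over all genes. These intronic reads came from 4 cells for Tac1 and 2 for Pthlh. A single IT cell held 66.9% of the exonic reads of Tac1, and a single cell 95.2% of those of Pthlh. The 10 Pvalb cells at 34 °C had summed levels of 1430 CPM for Tac1, 420 CPM for Npy, 320 CPM for Crhbp, 79.9 CPM for Cort and 46.3 CPM for Sst, and no read of Pdyn.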

How the data were processed

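Patch-seq libraries of 1320 neurons recorded at 25 °C and 185 recorded at 34 °C were analysed. Per the submitters' processing notes and the study's methods, the authors demultiplexed with bcl2fastq 2.20, aligned reads to mm10 with STAR 2.5.4b through the zUMIs pipeline, assigned them to Gencode transcripts, and deposited whole-number counts per gene, exonic and intronic, without normalization. Of 1329 columns in the 25 °C exon table, 9 matched no sample and were not used. The 85 spike-in rows (4.69% of counts) were left out of totals. The 25 °C intron table was not used, so intronic reads were described at 34 °C alone.

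Cells were grouped by the labelled t-type. Each GEO sample is 1 cell and no animal is named, so a group counts as 1 sample and no test was made. Counts were summed per group and given as CPM with exact Poisson intervals (95%), and shares with exact binomial intervals after thinning to 200000 counts. Differences are log2 ratios of group levels with 1 CPM added, over genes with 10 CPM or more in the higher group, and were called at 2-fold. The calculation was tested on simulated Poisson counts, in which cells of a group differed by depth and counting error alone. That simulation thus did not cover the spread between real cells. Doublets were not searched for, since each library comes from an aspirated cell.

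The text names the 7 members, for each the 3 genes most correlated with it over t-types with 5 or more cells, and of each gene list the 4 genes with the largest difference between the Sst and Pvalb families. Members and lists were chosen with earlier results of these data known. Alternatives were depth minimum, medians or means over cells, a pseudocount of 10 CPM, thinning, leaving out the deepest cell, another scaling, no filter and each recording period. Gene coordinates came from GENCODE M21 and promoters from RefSeq GRCm38.p6. Calculations used pandas 2.3.3, numpy 2.4.6 and scipy 1.17.1 in Python 3.11.15, and plots matplotlib 3.10.9.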

Additional observations from a re-analysis of the deposited data

Results flagged for a closer look

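In t-types of 5 to 10 cells, the highest cell stood far from the others in 14 of 52 combinations of member and t-type. The limits used let chance do so in about 1 in 20 groups of normally distributed values, and CPM with many zeros are not so distributed, so the count is not read against that rate. At 25 °C, the highest of 7 Pvalb Gabrg1 cells had 2274 CPM of Npy (the next had 953 CPM), and the highest had 186 CPM of Crhbp (next 1.14 CPM). In Sst C1ql3_1 the highest of 8 cells had 5628 CPM of Sst (next 1041 CPM) and the highest had 258 CPM of Cort (next 7.01 CPM). In Sst Htr1a the highest of 6 cells had 108 CPM of Cort (next 0) and the highest had 2323 CPM of Crhbp (next 847 CPM). Sst Myh8_3 had a single cell of 9 with Cort, at 49.1 CPM, and Sst Th_1 had a cell with 233 CPM of Tac1 (next 27 CPM).

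At 34 °C, the highest of 9 Sst Crhr2_2 cells had 186 CPM of Cort (next 91.8 CPM) and the highest had 1195 CPM of Crhbp (next 498 CPM). In Sst Htr1a, a single cell of 7 had Cort, at 41.8 CPM, and the highest had 750 CPM of Npy (next 229 CPM). In Sst Pvalb Calb2 the highest of 10 cells had 7450 CPM of Sst (next 3392 CPM) and the highest had 818 CPM of Pdyn (next 76.3 CPM).

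Members were also read in the 92 cells at 25 °C that had no t-type and entered no comparison. A read was found in 27 of them for Sst, 6 for Cort, 34 for Npy, 5 for Pdyn, 5 for Tac1, 9 for Crhbp and 4 for Pthlh. The medians were 0 CPM and the highest cells had 6810 CPM of Sst, 5124 CPM of Npy and 1422 CPM of Pthlh. These cells had a median depth of 236502 counts.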

How the results depend on the processing

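Members called at least 2-fold higher or lower changed most when medians over cells replaced sums. Sst against Pvalb cells then had 3 higher and 1 lower, Sst Chodl 0 lower, Sst Pvalb Calb2 1 higher and 1 lower, Pvalb Vipr2_2 1 lower, and 34 °C against 25 °C 1 higher and 0 lower. Such medians are 0 where fewer than 50% of cells hold a read. Without the cell with the most Tac1 reads, chosen after the data were seen, Sst Pvalb Calb2 had 1 higher member and 34 °C against 25 °C 0 lower. Leaving Sst Pvalb Calb2 out of the Sst family, also chosen after the data were seen, kept the 5 higher and 2 lower members. The leading t-type for Cort was Sst Th_3 by medians (104 CPM) and Sst Pvalb Calb2 in the earlier period (185 CPM). In that period the leaders were Sst Hpse for Pdyn (2203 CPM), Pvalb Calb1_2 for Tac1 (1521 CPM) and Pvalb Reln for Pthlh (36.3 CPM), where t-types with fewer than 5 cells had no value. Without thinning, 64.3% of Pvalb cells had 2 or more members at 10 CPM. Of the genes most like a member, 11 of 21 were shared with the list from t-types of 10 or more cells. Each of the other counts was within 1.5 times its value, and the other leading t-types were the same. No called value changed sign. Median-of-ratios scaling moved log2 fold changes by at most 0.07. Exonic plus intronic counts were not run, and Pvalb Vipr2_2 had no value in the earlier period. No paired analysis was possible because cells carry no replicate numbers and no result comes from a test, and the 37 days with both families are given as a description.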
